A study of Mus musculus with 2 samples.

Results

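8 genes for secreted blood proteins were followed in single biliary epithelial cells of mouse liver: Alb, Ttr, Apoa1, Apoa2, Apob, Apoc1, Apoe and Apoh. They were taken by symbol as 8 of 55415 genes in the deposited count matrices, and each symbol matched 1 gene. They were chosen on their UMI counts in these 2 libraries, as an earlier reading of the same data had shown them, so their levels and differences are descriptions and no test was made on them. The question was which of these transcripts lay evenly over all cells, as free RNA in the suspension would, and which were concentrated in some biliary cells. Endothelial-like cells of the same libraries served as the background.

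The study profiled 1 library of biliary epithelial cells labelled with the genotype Sox9cKO and 1 labelled Sox9con. The labels name the tissue as liver and say that fixed cells went through split-pool barcoding, in which each first-round well adds 1 barcode to all cells in it and no droplet is formed. The age and sex of the mice, the driver of the Sox9 deletion, any treatment and the number of animals per library were not given in the sources used here. With 1 library per genotype, genotype, animal and preparation cannot be told apart. Wells and sublibraries split a library technically and are not replicates. No p-value is given, and intervals are 95% intervals that cover counting error only.

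The Sox9cKO library held 2740 cells and 14856321 UMIs (unique transcript molecules), and the Sox9con library 3622 cells and 12811243 UMIs. Biliary cells numbered 2385 and 3264, with medians of 4991 and 3193 UMIs per cell. Endothelial-like cells, those with 5 or more UMIs over Ptprb, Stab2, Kdr and Flt1, numbered 88 and 120, with medians of 2718.5 and 2419 UMIs. All 12 other endothelial markers were detected in them, at a summed 5774 CPM (UMIs per 1000000 UMIs of the cell class) in Sox9cKO and 7014 in Sox9con, against 25.1 and 36.3 in biliary cells. The 2 libraries shared 0 cell barcodes. Sox9 itself, the gene named in the labels, stood at 120 CPM in Sox9cKO and 145 in Sox9con biliary cells (0.829-fold, 0.773 to 0.889), and 10 of 20 pairs of wells were higher in Sox9cKO. The difference rested on the Sox9con well D9, at 219 CPM against 74.9 to 155 in the other 3. Without D9 Sox9con stood at 111 CPM and the ratio was 1.09 (1.001 to 1.18). The Sox9 counts therefore do not separate the wells by label, and they do not resolve which part of the gene the reads cover. The libraries below are named as labelled.

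Albumin and transthyretin are soluble carrier proteins that the liver secretes into blood, transthyretin carrying thyroid hormone and the retinol-binding protein complex. Apolipoproteins coat lipoprotein particles. Apob is the structural protein of very low density and low density particles, Apoa1 and Apoa2 are the main proteins of high density particles, Apoe is a ligand for lipoprotein receptors, and Apoc1 is a small exchangeable apolipoprotein encoded in a cluster with Apoe. Apoh is a phospholipid-binding plasma glycoprotein. Hepatocytes are the main source of these proteins in liver, and Apoe is also made by macrophages and other non-parenchymal cells.

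Promoter sequences are shown for Alb, Apob and Apoe, the 3 members with the most UMIs, because these stood higher together in the same cells of the Sox9cKO library. Promoters of 6 of the 8 members were taken from the RefSeq promoter table (build GRCm38.p6), and Ttr and Apoc1 are named only. Each line holds the 250 bases before the first listed transcription start, 5′ to 3′ on the gene's strand, and capitals mark any match to the motifs GTTAAT (an HNF1 half-site), CAAAGTC (an HNF4 core), ACAAAG and ACAATG (SOX cores) or TATAAA, a core promoter motif.
Alb (chr5:90460620-90460869, plus strand): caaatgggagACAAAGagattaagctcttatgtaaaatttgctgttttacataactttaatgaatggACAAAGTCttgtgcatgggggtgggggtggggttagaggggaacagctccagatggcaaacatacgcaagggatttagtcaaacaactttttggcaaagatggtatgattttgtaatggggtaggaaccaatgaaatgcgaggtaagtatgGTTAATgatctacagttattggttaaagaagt
Apob (chr12:7977427-7977676, plus strand): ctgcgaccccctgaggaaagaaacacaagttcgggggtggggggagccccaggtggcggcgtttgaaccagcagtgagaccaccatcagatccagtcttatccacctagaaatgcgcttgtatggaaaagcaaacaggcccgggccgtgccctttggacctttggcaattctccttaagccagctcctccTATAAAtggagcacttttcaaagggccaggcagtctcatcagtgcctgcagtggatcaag
Apoe (chr7:19699189-19699438, minus strand): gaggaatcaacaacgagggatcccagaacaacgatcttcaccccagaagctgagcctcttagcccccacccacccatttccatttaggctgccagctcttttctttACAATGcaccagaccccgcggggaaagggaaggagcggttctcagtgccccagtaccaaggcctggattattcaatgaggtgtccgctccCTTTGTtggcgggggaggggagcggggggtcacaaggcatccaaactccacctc
Both strands were searched. In Alb, GTTAAT lay 32 to 27 bases before the start, CAAAGTC lay 182 to 176 bases before it, and ACAAAG matched 2 times, once overlapping CAAAGTC. In Apob, TATAAA lay 60 to 55 bases before the start. In Apoe, ACAATG lay 144 to 139 bases before the start and ACAAAG, on the other strand, 54 to 49 bases before it. Over 27025 genes with a promoter in the table, the same windows held GTTAAT in 6.52%, CAAAGTC in 3.80%, ACAAAG in 16.5%, ACAATG in 10.99% and TATAAA in 13.0%. The windows of Apoa1 and Apoh held none of the 5 motifs. These are matches of letters and not measured binding sites.

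Between the libraries the members did not move together. In biliary cells Alb and Apob stood higher in Sox9cKO, and Ttr, Apoc1, Apoe and the scarce Apoa1 stood higher in Sox9con. Of the 6 members with at least 200 UMIs over both libraries, Apob was at least 2-fold higher in Sox9cKO, and Ttr and Apoc1 were at least 2-fold lower. Of 9089 genes at that minimum, 2.16% were at least 2-fold higher and 1.74% at least 2-fold lower. Over the 6 members the log2 ratio had a median of -0.75, and over all these genes one of -0.07. The count of genes at least 2-fold lower was 158, and it was 370 without the Sox9con well D9.

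Alb is the most abundant protein of plasma. In biliary cells of the 5 Sox9cKO wells Alb stood at 558.3 (A11), 441.6 (A12), 660.5 (B1), 596.7 (B2) and 558.1 (B3) CPM, and in the 4 Sox9con wells at 388.4 (D9), 346.5 (D10), 378.6 (D11) and 359.2 (D12). Every Sox9cKO well lay above every Sox9con well. Over the whole libraries Alb stood at 554 against 369 CPM, a ratio of 1.5 (1.45 to 1.56), and it was higher in 8 of 8 sublibraries.

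Ttr went the other way. Its wells ran from 48.5 (A12) to 105.9 (A11) CPM in Sox9cKO and stood at 87.7 (D9), 177.9 (D10), 231.8 (D11) and 199.7 (D12) in Sox9con, so that D9 lay within the Sox9cKO range and the other 3 wells above it. The library level was 2.27-fold higher in Sox9con (2.10 to 2.46).

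Apob showed the largest difference of the 8 members. Its wells stood at 345.6 (A11), 290.4 (A12), 280.4 (B1), 341.4 (B2) and 335.7 (B3) CPM in Sox9cKO and at 59.9 (D9), 49.97 (D10), 51.7 (D11) and 59.3 (D12) in Sox9con. The well ranges did not overlap. The ratio was 5.67 (5.22 to 6.17) and was above 1 in 8 of 8 sublibraries.

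Apoe was the most abundant member in Sox9con. Its Sox9cKO wells stood at 687.6 (A11), 442.2 (A12), 647.9 (B1), 468.6 (B2) and 533.5 (B3) CPM, and its Sox9con wells at 602.7 (D9), 1195 (D10), 1415 (D11) and 1264 (D12). D9 again lay inside the Sox9cKO range. The library level was 1.96-fold higher in Sox9con (1.91 to 2.02). Apoc1, which neighbours Apoe in the genome, ran from 15.9 (A12) to 24.6 (B3) CPM in Sox9cKO and from 37.8 (D9) to 111.6 (D11) in Sox9con, with no overlap, and was 3.71-fold higher in Sox9con (3.23 to 4.27). Well D9 also differed in depth, with a median of 4298.5 UMIs per biliary cell against 2371 to 3273 in the other Sox9con wells, and in Spp1 (osteopontin, a biliary product), at 2852 CPM against 4454 to 5227, and in Sox9 as given above. Whether depth had a part in the D9 values was not tested.

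The other 3 members were scarce. Apoa1 had 106 UMIs in Sox9cKO and 139 in Sox9con biliary cells, 8.27 and 11.9 CPM (0.695-fold, 0.534 to 0.901), its well ranges of 5.88 to 11.9 and 10.2 to 17.4 overlapped, and it was higher in Sox9cKO in 0 of 8 sublibraries. Apoa2 had 1 and 2 UMIs. Apoh had 47 and 22 UMIs, 3.67 and 1.88 CPM (1.95-fold, 1.15 to 3.39). In the GENCODE M21 annotation Apoh overlaps Gm11656 on the same strand and Prkca on the other, so its counts are uncertain. No other member overlaps an annotated gene there.

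**Figure D1:**
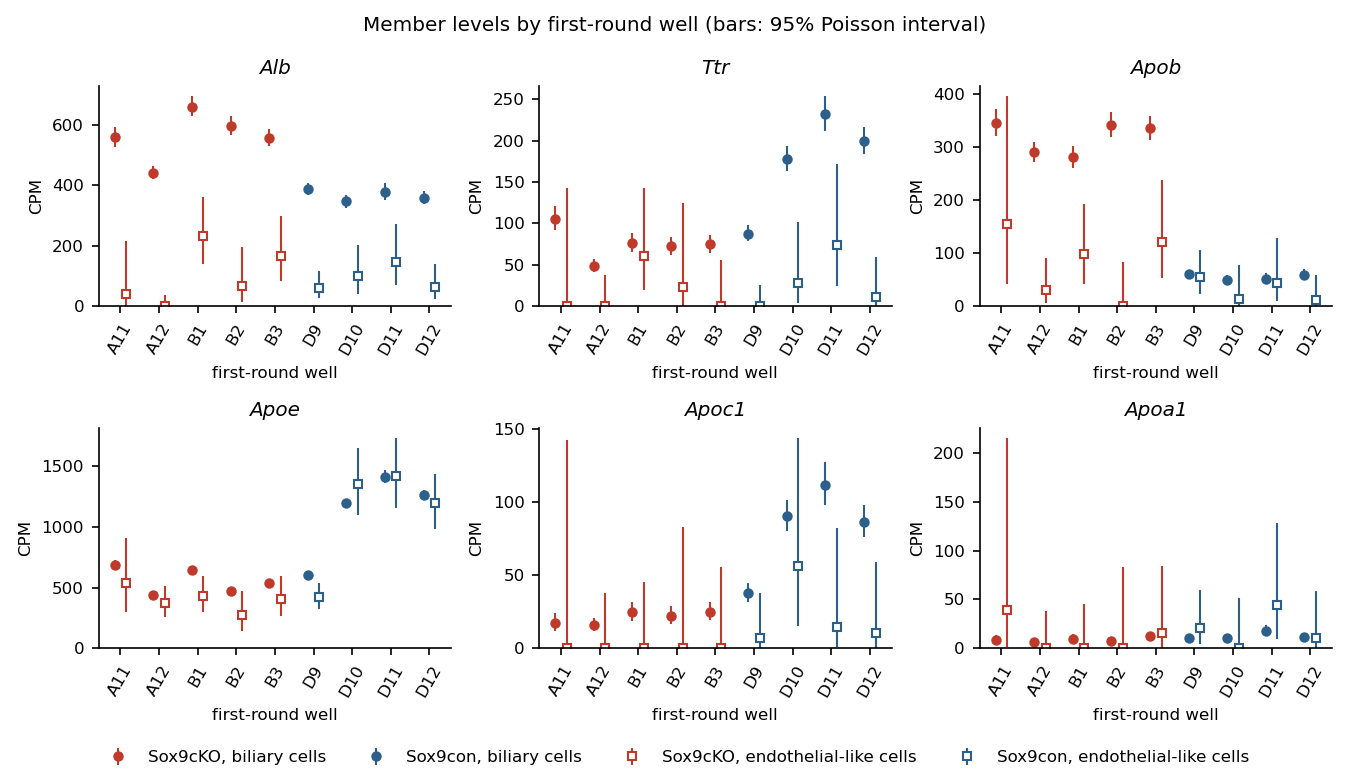
Level (CPM, linear axis from 0) of 6 members in each first-round well; filled circles are biliary cells, open squares endothelial-like cells, bars 95% Poisson intervals. Apob of biliary cells separates the 2 libraries (280.4 to 345.6 against 49.97 to 59.9), while Apoe of endothelial-like cells is low in D9 and high in D10 to D12, as it is in biliary cells.

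Within the biliary cells of each library, several members were far from evenly spread. A spread index was taken as the mean squared deviation of a cell's UMIs from the number its depth predicts, divided by that number, so that chance sampling of an even pool gives 1. In Sox9cKO the index was 7.62 for Alb, 5.98 for Apoe and 3.45 for Apob, against medians of 2.11, 2.07 and 1.62 over genes with a like number of UMIs (within 2-fold). In Sox9con it was 11.09 for Apoe, 3.48 for Alb, 2.22 for Apoc1 and 2.19 for Ttr, against medians of 2.71, 1.52, 1.25 and 1.32. Apob, uneven in Sox9cKO, had an index of 1.44 in Sox9con against a median of 1.23. Apoa1 lay near 1 in both, at 1.23 and 1.16, against a median of 1.19 in each.

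The shares of cells with a UMI showed the same order. Alb was found in 54.05% of Sox9cKO biliary cells where an even spread of its UMIs would give 89.6%, and in 47.5% against 68.1% in Sox9con. Apoe was found in 55.4% against 89.2% and in 59.9% against 93.8%. Apob was found in 47.8% against 76.1% in Sox9cKO, and in 15.04% against 17.7% in Sox9con. Apoa1 was found in 4.15% against 4.32% and in 4.01% against 4.15%. The richest single biliary cell held 81 UMIs of Alb in Sox9cKO, and 63 of Apoe in Sox9con.

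To compare cells of like depth, each cell was thinned to 2000 UMIs, which left out 142 shallower biliary cells of Sox9cKO and 566 of Sox9con. Alb was then found in 41.8% of 2243 Sox9cKO cells (95% exact binomial interval 39.7% to 43.8%) and in 38.4% of 2698 Sox9con cells (36.5% to 40.2%). Cells with 5 or more Alb UMIs made up 5.62% and 2.37%. For Apoe, a UMI was found in 41.9% and 51.8% of cells, and 5 or more UMIs in 6.20% and 16.7%. For Apob, a UMI was found in 33.0% and 10.1%, and for Ttr in 13.3% and 22.0%. In the endothelial-like cells deep enough to be thinned, 62 in Sox9cKO and 76 in Sox9con, an Alb UMI was found in 9.68% (3.63% to 19.9%) and 9.21% (3.78% to 18.1%), and an Apoe UMI in 53.2% (40.1% to 66.0%) and 68.4% (56.7% to 78.6%). For Apoe the share in endothelial-like cells was above the biliary share in Sox9con, and in Sox9cKO its interval spanned the biliary share. For Alb it lay far below the biliary share in both.

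**Figure D2:**
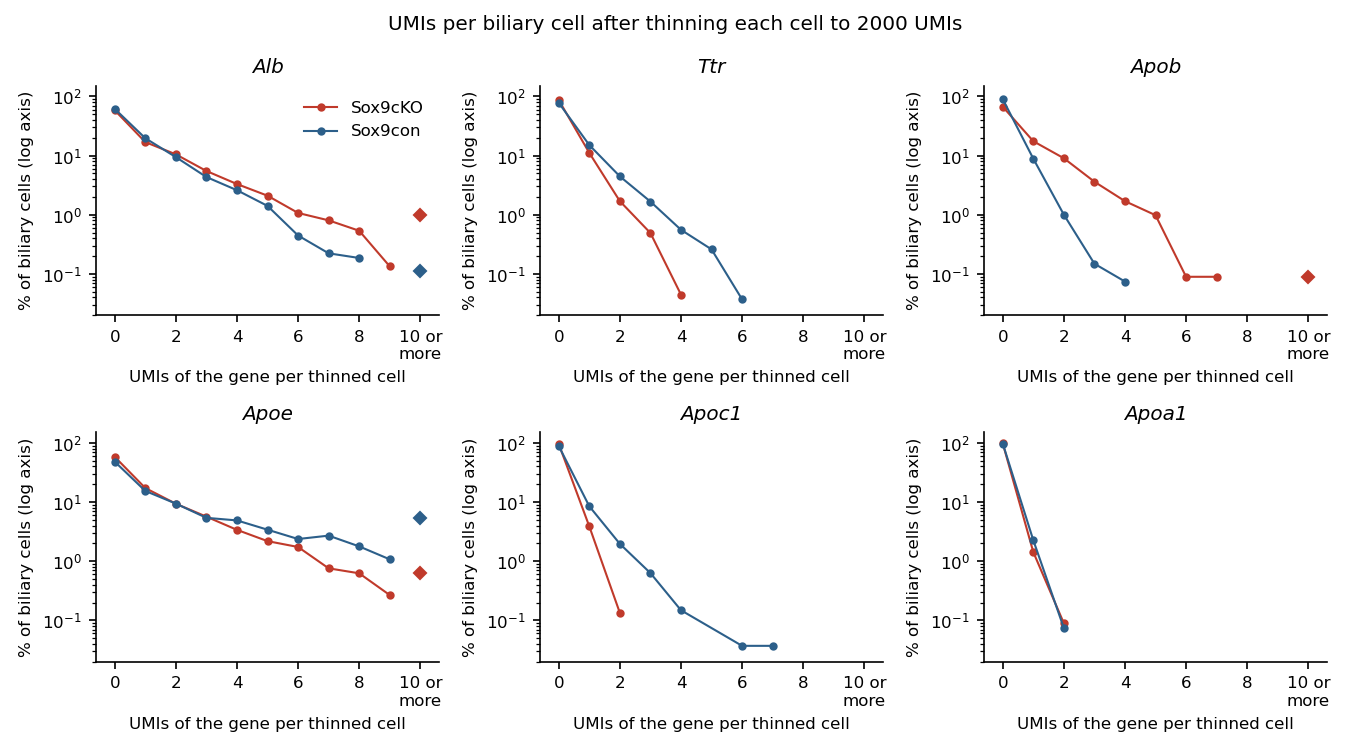
Share of biliary cells (log axis) by the number of UMIs of a member per cell after thinning to 2000 UMIs; circles are single values of 0 to 9 UMIs, diamonds pool 10 or more, and values with no cell are left out. Apoe reaches 10 or more UMIs in 5.34% of Sox9con cells, whereas no cell exceeds 2 UMIs of Apoa1.

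The concentration was then read against other plasma protein genes, none of them a member. Biliary cells were called plasma-positive at 5 or more UMIs over Fga, Fgb, Fgg, Vtn, Gc, Hpx, Hp and Plg (fibrinogen chains, vitronectin, vitamin D-binding protein, hemopexin, haptoglobin and plasminogen), and plasma-negative at 0. Sox9cKO had 579 plasma-positive cells (24.3% of its biliary cells) and Sox9con 4 (0.123%), so the contrast could be described in Sox9cKO alone. Its plasma-positive cells were deeper, with a median of 6515 UMIs against 4458 in the 1273 plasma-negative cells. The part of depth in the gate was not tested. With the cells thinned to 2000 UMIs after gating, Alb was still found in 71.1% of plasma-positive and 21.2% of plasma-negative cells, and Apoe in 81.3% and 18.1%.

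In Sox9cKO 4 members, Alb, Apob, Apoc1 and Apoe, were at least 2-fold higher in plasma-positive than in plasma-negative cells, where 5.01% of 6366 genes were. Apoe stood at 1186 against 132 CPM, 8.98-fold higher (8.32 to 9.69). By well, its plasma-positive cells stood at 1541 (A11), 1032 (A12), 1352 (B1), 1016 (B2) and 1141 (B3) and its plasma-negative cells at 174.1, 87.8, 168.1, 136.1 and 118.1. The 2 ranges lay far apart in every well. Apoc1 stood at 45.1 against 7.05 CPM (6.40-fold, 4.55 to 9.17).

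Alb stood at 981 against 207 CPM in the same cells, 4.75-fold higher (4.45 to 5.07), and Apob at 556 against 136, 4.07-fold higher (3.76 to 4.42). Ttr was 1.86-fold higher (1.61 to 2.16), short of 2-fold. Apoa1 did not differ beyond counting error, at 8.13 against 8.90 CPM (0.914-fold, 0.573 to 1.44), and neither did Apoh (1.62-fold, 0.830 to 3.19). Plasma-positive cells held 31.6% of all biliary UMIs of the library, and they held 69.3% of Apoe, 69.3% of Apoc1, 56.1% of Alb, 55.7% of Apob, 44.7% of Ttr and 31.1% of Apoa1 UMIs. Apoa1 thus matched the share of all UMIs.

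Cells with 1 to 4 gate UMIs, 533 in Sox9cKO and 272 in Sox9con, could be set side by side across the libraries. In Sox9cKO they lay between the other 2 classes for Alb (672 CPM), Apob (350), Apoe (480) and Apoc1 (13.9). In Sox9con they stood at 622 for Alb, 2143 for Apoe, 170 for Apoc1, 220 for Ttr and 66.2 for Apob. Taking all Sox9con cells with a gate UMI against those with none, Apoc1 was 2.69-fold (2.29 to 3.15), Apoe 2.36-fold (2.26 to 2.46), Alb 1.83-fold (1.69 to 1.98) and Ttr 1.38-fold (1.21 to 1.58) higher, while Apob (1.23-fold, 0.962 to 1.56) did not differ beyond counting error. Here 2 members were at least 2-fold higher, as were 1.10% of 7087 genes. In the 4 plasma-positive cells of Sox9con alone 3 members were (Apoc1, Apoe and Apob, the last on 2 UMIs in 1 cell), as were 18.9% of 6772 genes, and nothing is read from so few cells.

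Cells with no gate UMI were also set side by side, though the gate leaves unlike remainders: 46.6% of Sox9cKO and 8.46% of Sox9con biliary cells held a gate UMI, and with them 88.7% and 21.1% of Apoe UMIs and 82.7% and 17.2% of Alb UMIs. Any difference below therefore depends on that selection. Apoe stood at 132 CPM in Sox9cKO and 934 in Sox9con (0.141-fold, 0.131 to 0.152), and Apoc1 at 7.05 and 65.1 (0.108-fold, 0.0773 to 0.148). Ttr stood at 54.9 and 158 (0.347-fold). Alb, higher in Sox9cKO over all biliary cells, was lower there in cells with no gate UMI, at 207 against 340 (0.608-fold, 0.569 to 0.649). Apob was 2.51-fold higher (2.25 to 2.80). At least 2-fold lower were 3 members (Ttr, Apoc1 and Apoe), as were 3.02% of 8008 genes, and 1 (Apob) was at least 2-fold higher, as were 1.14%.

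**Figure D3:**
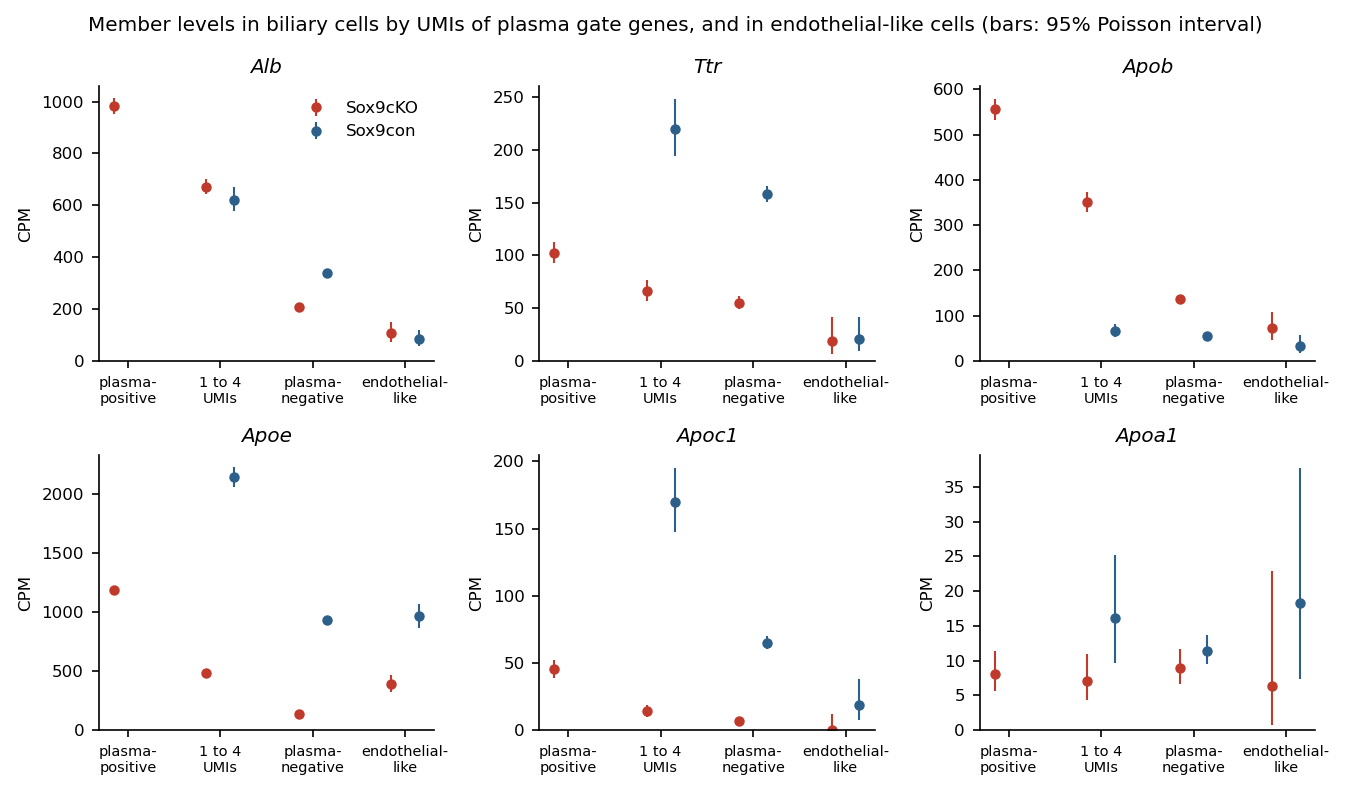
Level (CPM, linear axis from 0) of 6 members in biliary cells with 5 or more, 1 to 4 and 0 UMIs of the plasma gate genes and in endothelial-like cells, with 95% Poisson intervals; the 4 plasma-positive cells of Sox9con are not drawn. In Sox9cKO Apoe falls from 1186 to 132 over the biliary classes and stands at 392 in endothelial-like cells.

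Markers of hepatocyte metabolism were scarce in the same cells, though higher with the gate. Over 24 such genes the summed level in Sox9cKO was 231 CPM in plasma-positive cells (208 to 294 over wells) and 129 in plasma-negative cells (107 to 159), and 7 of the 24 had no UMI in plasma-positive cells: Cyp1a2, Cyp7a1, Cyp8b1, Hpd, Hal, Ugt2b1 and Mup3. In plasma-negative cells 7 had no UMI either, with Slco1b2 in place of Hal, and 17 were detected in each class. Cyp2e1, an abundant cytochrome of hepatocytes, had 1 UMI in the 579 plasma-positive cells and 7 in all Sox9cKO biliary cells. The 12 biliary markers summed to 9083 CPM in plasma-positive and 10286 in plasma-negative cells. This sum was held up by Spp1, at 2999 against 1392 CPM (2.15-fold, 2.09 to 2.21). The other 11 markers summed to 6085 against 8894 CPM, and Krt19 (0.372-fold, 0.353 to 0.391) and Krt7 (0.396-fold, 0.357 to 0.439) were less than 0.5-fold. Not all of the 11 were lower: Sox9 stood at 136 CPM (125 to 148) in plasma-positive and 108 (100 to 117) in plasma-negative cells. The part of RNA from hepatocytes in the member levels was not tested.

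Endothelial-like cells were read as the background for RNA from other cells, and biliary markers were not even among them. In Sox9cKO 9 of the 88 cells held 84.3% of the UMIs of Cdh1 (E-cadherin), which was found in 26.1% of cells where an even spread would give 70.2%. In Sox9con Cdh1 was found in 19.2% against 50.6%. The summed biliary list ran from 656 to 3861 CPM over wells in Sox9cKO and from 1439 to 5420 in Sox9con. The part of doublets in this was not tested. Over all endothelial-like cells, the levels of 10 biliary markers, as a share of the level in biliary cells, had a median of 30.3% in Sox9cKO (24.1% for Spp1 to 38.8% for Cldn7) and of 15.7% in Sox9con (10.8% for Cldn4 to 21.1% for Cldn7). Alb in endothelial-like cells stood at 19.4% (13.4% to 27.2%) of its biliary level in Sox9cKO and at 22.7% in Sox9con, Ttr at 26.2% and 12.8%, and Apob at 23.0% (14.6% to 34.6%) and 61.1% (32.3% to 105%). Apoa1 stood at 76.5% (9.15% to 283%) and 154% (60.8% to 326%), and Apoc1 at 24.0% in Sox9con (9.62% to 49.6%). Apoe stood at 72.4% in Sox9cKO and 90.9% in Sox9con, above each of the 10 biliary markers in both libraries. Apoa1 was also above them in both, on 2 and 7 UMIs, though its Sox9cKO interval spanned them. In Sox9con, where the highest marker was at 21.1%, Apob was above it. Alb and Apoc1 had points above it there, on 32 and 7 UMIs, but not beyond counting error.

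In plasma-negative biliary cells, 3 of 8 members in each library lay above the endothelial-like level, as did 32.9% (Sox9cKO) and 34.6% (Sox9con) of genes. With so many genes passing, the count is not read as a trait of the members. Alb, Ttr and Apob lay above the endothelial-like level in Sox9cKO, in that the lower bound of the ratio exceeded 1, at 1.92-fold (1.37 to 2.79), 2.89-fold (1.31 to 7.94) and 1.88-fold (1.24 to 2.98). In Sox9con Alb (4.06-fold, 2.87 to 5.94), Ttr (7.54-fold, 3.82 to 17.5) and Apoc1 (3.55-fold, 1.72 to 8.87) did, and Apob did not (1.60-fold, 0.928 to 3.02). By this measure 32.9% of 5010 genes in Sox9cKO and 34.6% of 6963 in Sox9con lay above the endothelial-like level. These are genes with at least 200 UMIs over the 2 classes. The 8 members were counted without that minimum, so the shares are of unlike sets. Every counted member reached it. Apoa1, Apoa2 and Apoh did not in either library, nor did Apoc1 in Sox9cKO. The 3 members of Sox9cKO rest on 34, 6 and 23 endothelial-like UMIs: without well A12 none of them was counted, and with thinned cells 1 was. The endothelial-like Alb UMIs were themselves uneven, 1 cell holding 15 of the 34. Against the 75 endothelial-like cells with no gate UMI, Alb was 5.43-fold higher (2.85 to 11.9) and Apob 2.94-fold (1.63 to 5.91).

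Apoe of plasma-negative biliary cells exceeded the endothelial-like level in neither library. In Sox9cKO its level was lower in plasma-negative biliary cells (132 CPM) than in endothelial-like cells (392), a ratio of 0.337 (0.278 to 0.411), and in Sox9con the 2 did not differ beyond counting error (934 and 966, 0.967-fold, 0.871 to 1.08). Apoa1 in both libraries and Apob in Sox9con did not exceed it beyond counting error either. In the share of endothelial-like cells with a UMI, Apoe lay nearer to an even spread than Cdh1. It was found in 59.1% against 66.5% in Sox9cKO and in 84.2% against 88.0% in Sox9con. In Sox9cKO its spread index was 1.49, against a median of 2.02 over genes with a like number of UMIs and 4.52 for Cdh1. In Sox9con it was 4.24, against a median of 2.75 and 3.66 for Cdh1, so by the index Apoe was not even there. Between the libraries, endothelial-like cells differed in Apoe in the same direction as biliary cells, at 0.406-fold (0.329 to 0.499).

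By well, Apoe of endothelial-like cells stood at 540.3 (A11), 368.6 (A12), 427.6 (B1), 269.7 (B2) and 407.1 (B3) CPM in Sox9cKO and at 418.8 (D9), 1358 (D10), 1425 (D11) and 1196 (D12) in Sox9con. The well D9 was low in both cell classes, and D10 to D12 were high in both. Among the other wells the order differed between the classes (B2 was above A12 in biliary and below it in endothelial-like cells), and the intervals of endothelial-like cells overlapped within Sox9cKO, from 295 to 907 in A11 and 139 to 471 in B2. The likeness over wells within a library therefore rests on D9. Apoa1 was found in endothelial-like cells with 2 UMIs in Sox9cKO and 7 in Sox9con, 6.32 and 18.3 CPM, within counting error of the biliary level (1.31-fold, 0.353 to 10.9, and 0.649-fold, 0.307 to 1.65). Apoc1 and Apoh had no UMI in the 88 endothelial-like cells of Sox9cKO, which allows up to 9.49 CPM, above the levels of both genes in plasma-negative biliary cells (7.05 and 3.19). Apoa2 had none in either library.

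**Figure D4:**
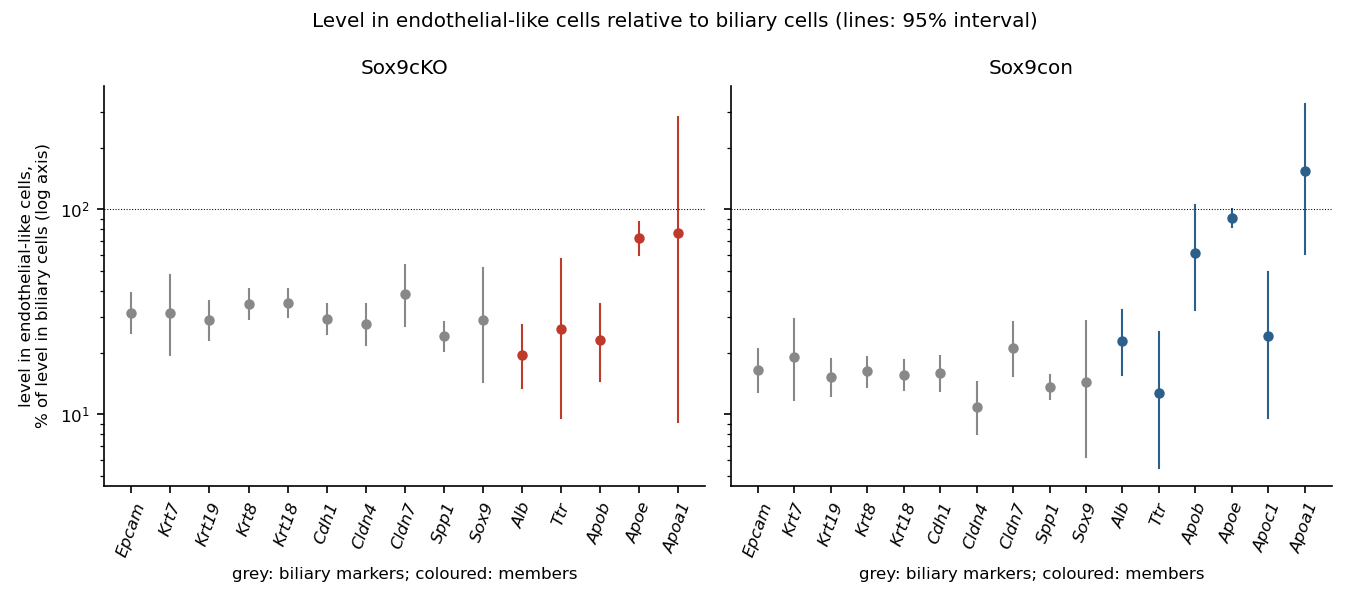
Level in endothelial-like cells as a percent of the level in biliary cells (log axis) for 10 biliary markers (grey) and the members with a UMI in endothelial-like cells (coloured), with 95% intervals; the dotted line is 100%. Apoe lies at 72.4% and 90.9%, above the grey points, Apob of Sox9con at 61.1%, while the grey points reach at most 38.8% and 21.1%; intervals of Apoa1 span 100%.

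Apob occurred with Alb and Apoe in Sox9cKO and hardly with either in Sox9con, where it was scarcer. Over thinned biliary cells, which share their library and depth, Pearson's r of log(1 + UMIs) between Alb and Apoe was 0.45 in both (2243 and 2698 cells). Alb and Apob had an r of 0.43 in Sox9cKO and 0.05 in Sox9con, and Apoe and Apob 0.32 and 0.01. Apoe and Apoc1 had 0.19 in Sox9cKO and 0.40 in Sox9con, on 93 and 415 thinned UMIs of Apoc1. Apob had 1348 and 313, so r of either gene is not on a like footing in the 2 libraries. Apoc1 went with Apoe in both libraries in the comparison of Apoe-rich cells below. Apoa1 stayed between -0.01 and 0.04 with every other member in both. These are descriptions of sparse counts.

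**Figure D5:**
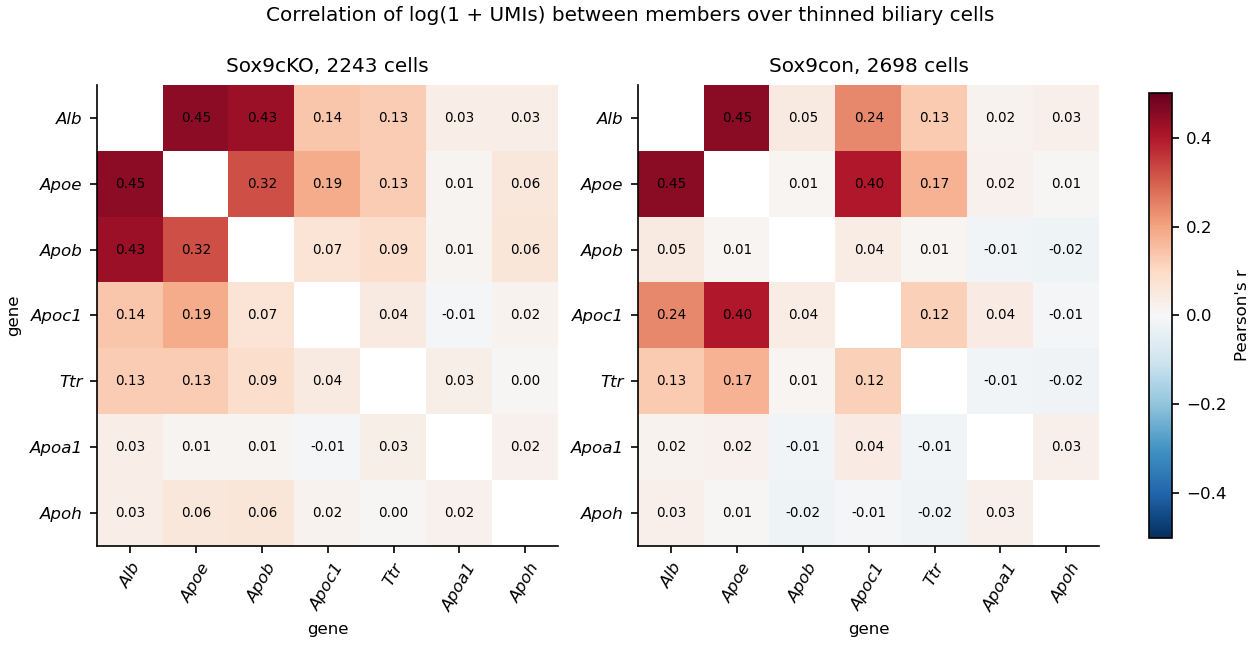
Pearson's r of log(1 + UMIs) between 7 members (Apoa2 left out) over biliary cells thinned to 2000 UMIs, in Sox9cKO and Sox9con. Apob stands with Alb (0.43) and Apoe (0.32) in Sox9cKO and with neither in Sox9con (0.05 and 0.01). Apoc1 and Apoe have 0.40 in Sox9con and 0.19 in Sox9cKO, the latter on fewer Apoc1 UMIs.

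Cells rich in Apoe were compared with cells lacking it, a grouping chosen after the values were seen. Among thinned cells, 139 in Sox9cKO (6.20%) and 450 in Sox9con (16.7%) had 5 or more Apoe UMIs, and 1304 and 1300 had none. Alb was 5.24-fold (4.59 to 5.97) and 5.40-fold (4.77 to 6.11) higher in the Apoe-rich cells of Sox9cKO and Sox9con. Apoc1 was 8.83-fold (4.17 to 18.6) and 22.6-fold (15.4 to 34.3) higher, and Ttr 2.26-fold (1.55 to 3.22) and 2.34-fold (1.98 to 2.75). Apob was 3.11-fold higher in Sox9cKO (2.55 to 3.76) and 1.05-fold in Sox9con (0.753 to 1.43). Apoa1 did not differ beyond counting error in either.

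In the Apoe-rich cells Spp1 was also higher, 2.62-fold and 3.74-fold, and Krt19, a keratin of bile duct cells, was lower, at 0.254-fold and 0.433-fold. At least 2-fold higher were 3.99% of 2905 genes in Sox9cKO and 4.42% of 3504 in Sox9con. At least 2-fold lower were 8.92% and 6.65%.

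The 10 genes whose counts over Sox9cKO cells were most like the sum of the 8 members, among 6072 compared, were Vtn (r = 0.50), C3 (0.48), Cp (0.48), Spp1 (0.44), Sox5 (0.42), Ces1c (0.41), Clu (0.40), Itih2 (0.40), Cald1 (0.38) and Serpina1c (0.35). In Sox9con the r was 0.61 for Spp1, 0.56 for Cp (ceruloplasmin, a copper-carrying plasma protein), 0.48 for Clu (clusterin, a secreted chaperone and apolipoprotein) and 0.43 for Sox5. It was 0.20 for Itih2, 0.17 for Cald1 and 0.04 for C3 (complement component). Vtn (0.16), Serpina1c (0.15) and Ces1c (0.07) rest there on 45, 43 and 42 thinned UMIs, below the minimum of 100 used for Sox9cKO.

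Other genes of lipoprotein biology, from lists of related function, were read between the libraries in the same way. These were counted at 20 UMIs over both libraries, where 4.18% of 14730 genes were at least 2-fold higher in Sox9cKO and 5.04% at least 2-fold lower. Of 12 other apolipoprotein genes 5 reached the minimum, none was 2-fold higher and 1, Apoc2 (an activator of lipoprotein lipase), was 2-fold lower, with a median log2 ratio of -0.64. Clu, the most abundant, stood at 3982 and 6215 CPM, Apool at 15.3 and 20.03 and Apoo at 8.74 and 10.5.

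Of 12 genes for lipoprotein assembly and transfer, all at the minimum, Lpl (lipoprotein lipase) was 2-fold higher and Pltp (phospholipid transfer protein) 2-fold lower, with a median log2 ratio of 0.01. Mttp, the transfer protein that loads lipid onto Apob, stood at 36.4 and 45.3 CPM, so it was not higher in Sox9cKO, the library with more Apob. The level of Mttp in the cells rich in Apob was not tested. Mia2 stood at 250 and 223, and P4hb, the partner subunit of Mttp, at 108 and 133. Of 11 lipoprotein receptor and efflux genes at the minimum (of 12), Lrp2 was 2-fold higher and none 2-fold lower, with a median log2 ratio of 0.30. Lrp1 stood at 108 and 71.3 CPM and Vldlr at 81.7 and 72.3.

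None of 12 regulators of liver secretory genes passed 2-fold either way, with a median log2 ratio of -0.09. Onecut2 stood at 1279 and 1375 CPM, Hnf4a, a nuclear receptor that regulates many secreted protein genes in hepatocytes, at 472 and 365 and Nr5a2 at 177 and 169. Other plasma proteins differed more, with 14 of 17 at least 2-fold higher in Sox9cKO and a median log2 ratio of 3.72. This list holds the 8 gate genes and was drawn up with the libraries' values known. Of its most abundant genes, Gc stood at 219 against 10.7 CPM and Vtn at 212 against 10.5, while Ambp, at 416 against 619, was lower. Of 24 hepatocyte metabolic genes, 12 reached the minimum, 4 (G6pc, Tat, Fbp1 and Bhmt) were 2-fold higher and none 2-fold lower, with a median log2 ratio of 0.06. Cps1, the first enzyme of the urea cycle, stood at 11.2 and 17.5 CPM.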

How the data were processed

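Per the labels' protocols, fixed liver cells were barcoded with the Evercode Whole Transcriptome kit (Parse Biosciences) using random hexamer and oligo(dT) primers. The authors deposited one cell-by-gene matrix of counts (UMIs, not normalized) per library with the wells of each cell, and per the submitters' processing notes the build was GRCm39. The aligner and counting settings are not given in the sources used here. Both libraries were used in full, with 0 per-sample columns left aside.

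Cells with at least 500 genes, 1000 UMIs and at most 15% mitochondrial UMIs were kept (2713 and 3507), which removed 27 and 115. Cells with 5 or more UMIs over 4 endothelial genes were set apart, then those with 5 or more over mesenchymal (220 and 114) or leukocyte genes (20 and 9). The remainder were the biliary cells. The mesenchymal gate rested on Reln (93.4% and 92.1% of its UMIs) and the leukocyte gate on Fyb (93.7% and 100%), and the Reln-gated cells held biliary markers at 9787 and 14548 CPM, near the biliary cells (9810 and 15896), so these gate names are not borne out. Alb in the Reln-gated cells stood at 888 CPM in Sox9cKO, with up to 97 UMIs in a cell, and at 260 in Sox9con. In biliary cells it stood at 554 and 369. One alternative adds the cells of both gates back. Scrublet marked 12 of 6220 cells (0.193%) as doublets, which is too few to have worked, and no cell was removed.

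UMIs were summed per class and expressed per 1000000 UMIs of the class (CPM). Levels carry exact Poisson intervals, ratios exact conditional binomial intervals and shares Clopper-Pearson intervals, all at 95%. A count of 0 is given a floor of 3 UMIs. Ratios of all genes use a prior count of 0.5. Depth was 12821595 and 11682304 UMIs over biliary cells, against 316250 and 382080 over endothelial-like cells, which limits every comparison with the latter. With 1 library per group no test was run, and edgeR 4.0.16 and DESeq2 1.42.0 gave scaling factors for alternatives only. Numpy 2.4.6, scipy 1.17.1 and scanpy 1.11.5 were used, and the scripts were tested on simulated data. Alternatives covered cell filters, scaling, thinning, doublets, gates, wells, the richest cells and the gene minimum.

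The members and the gene lists were chosen with earlier results of these data known. The text names all 8 members, the 3 genes with the most UMIs in each list (some genes of these lists are not reported here), and the 10 genes most like the members by Pearson's r over Sox9cKO cells among genes with at least 100 thinned UMIs. List members past 2-fold in counts of 5 or fewer were named after their values were seen, as were genes without a UMI, Cyp2e1 and Krt19.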

Additional observations from a re-analysis of the deposited data

How the results depend on the processing

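The direction of every member's difference between the libraries held under each alternative run for Alb, Ttr, Apoa1, Apob, Apoc1, Apoe and Apoh. The log2 ratio ran from 2.37 to 2.64 for Apob (2.50 as reported), 0.51 to 0.72 for Alb, -1.46 to -1.02 for Ttr, -2.19 to -1.74 for Apoc1 and -1.24 to -0.84 for Apoe, the lowest value of the last 3 coming without well D9. The count of members at least 2-fold higher in Sox9cKO stayed at 1 in 23 of 23 alternatives, and the count at least 2-fold lower (2) was 3 in 5 of them, with Apoe as the third member: without wells A11, B1 or D9, with thinned cells and without the 5% of cells with the most UMIs. Over all genes, the count at least 2-fold higher (196) was 100 with thinned cells, 615 at a minimum of 20 UMIs and 116 at a minimum of 500. The count at least 2-fold lower (158) was 98 with DESeq2 size factors, 370 without well D9, 742 at a minimum of 20 and 87 at a minimum of 500.

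Members above the endothelial-like level in plasma-negative cells of Sox9cKO (3) numbered 1 with thinned cells and 0 without well A12, whose 19 endothelial-like cells held no Alb UMI. Alb over the endothelial-like level in Sox9cKO, a log2 ratio of 0.94, was 3.20 without the top 5% of cells by Scrublet score, 2.15 with an endothelial-like gate at 10 UMIs and 0.43 with one at 3. The 3 members at least 2-fold higher in the 4 plasma-positive cells of Sox9con (18.9% of genes were) numbered 0 with the gate at 10 UMIs. A gate at 1 UMI was chosen after seeing the data. Of 687 recomputed single-gene values, 629 stayed within their counting interval, 58 moved and 0 called values changed sign. No paired analysis was possible because each genotype has 1 library. Endothelial-like cells limit depth: Ttr, Apoa1, Apoc1 and Apoh rest there on at most 8 UMIs per library.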
